A study of Mus musculus with 6 samples.

Results

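Arterial endothelial cells line the arteries and arterioles of the lung, upstream of the capillary bed in which gas exchange takes place. They are joined by gap junctions built from the connexins Gja5 and Gja4, they carry the Notch and ephrin-B2 signals that set arteries apart from veins, and their basal side faces an elastic layer and smooth muscle. Like other endothelium they can display adhesion molecules that slow and hold leukocytes, and their matrix and vasoactive products bear on the calibre of the vessel. The cells described here are the 604 that the deposited annotation calls arterial, among 61839 cells of the whole series and among 10969 endothelial cells of 5 annotated types. The other types are general capillary cells (gCap, 6096), aerocytes (aCap, 3376), venous cells (Vein, 571) and lymphatic cells (322). No cell was reassigned.

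The study followed alveolar development and its disturbance by oxygen in the lungs of 36 C57BL/6 mouse pups. Pups breathed room air (normoxia) or an oxygen-rich atmosphere (hyperoxia) from birth and were studied at postnatal day 3 (P3), day 7 (P7) or day 14 (P14), with 6 mice in each of the 6 groups and no genetic change in any of them. Whole lungs were dissociated after perfusion, the cells of each mouse were marked with a lipid-anchored DNA barcode, and 6 droplet libraries were made from 5 pools, each with 3 mice per age and oxygen level. No pool held P14 mice together with younger ones, so a difference between P14 and an earlier age and a difference between pools cannot be told apart, while both oxygen levels were present in each pool. The paper names an uneven spread of the sexes at P3 and P7 as a limitation, with an equal one at P14. Sex was not a term in any fit here.

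The annotation and the markers went together. Gja5 (the gap junction protein connexin 40, chr3:96904693-97077416 in GRCm38) averaged 486 ± 119.8 CPM, the count of a gene's unique molecular identifiers (UMIs) scaled to a common total per mouse (SD over 28 mice), in arterial cells, against 17.9 CPM in gCap, 3.33 CPM in aCap and 1.16 CPM in Vein cells. Bmx, a non-receptor tyrosine kinase of arterial endothelium, averaged 176 ± 40.5 CPM, and the next highest type, lymphatic cells, averaged 14.8 CPM. Dkk2, a secreted modulator of Wnt signalling, averaged 133 ± 92.5 CPM, and its highest mean in another type was 1.5 CPM in gCap, where single mice reached up to 16.0 CPM. Mgp, a secreted inhibitor of calcification, was the most abundant of them at 5167 ± 2461 CPM and was shared with Vein cells at 1193 ± 855 CPM. At least 1 UMI of Gja5 was found in 69.2% of arterial cells and in 4.2% of gCap cells, whose median depths were 3782 and 2623 UMIs. With each cell thinned to 1000 UMIs the shares were 38.4% of 576 arterial cells and 1.53% of 5419 gCap cells. The clusters were made from these genes, so the levels are a description and carry no test.

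**Figure D1:**
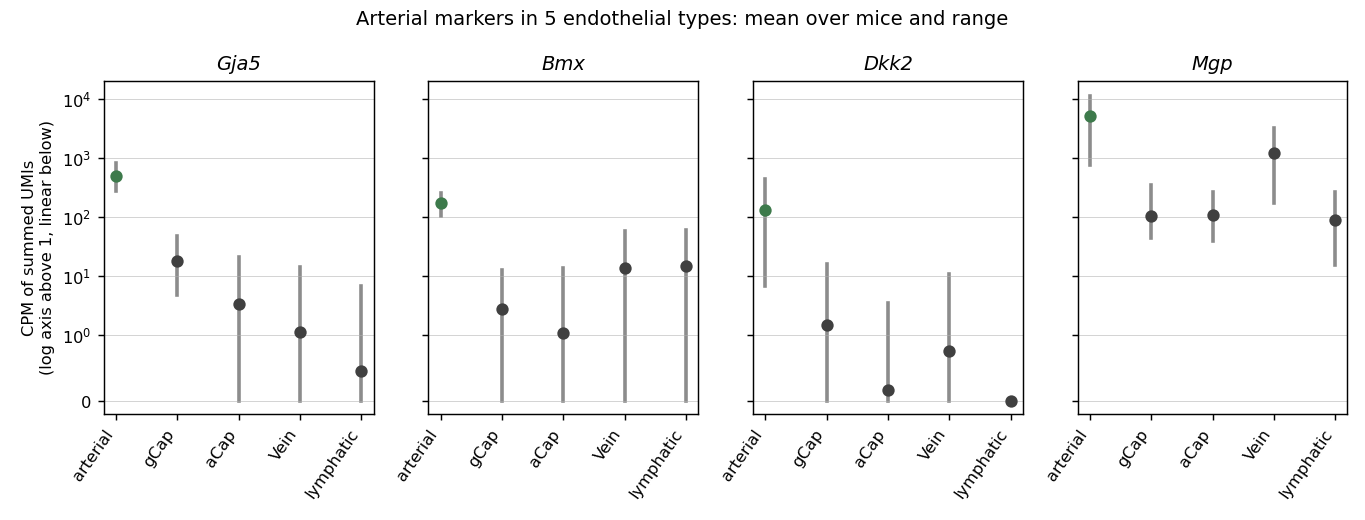
Level of the 4 arterial markers in 5 endothelial types, in CPM of the UMIs summed per mouse (log axis above 1, linear below). Points are means over mice that had 10 or more such cells (28 arterial, 35 gCap, 35 aCap, 29 Vein, 15 lymphatic) and bars run from the lowest to the highest mouse. For all 4 markers the arterial mean lies above the highest mouse of every other type. For Gja5 and Bmx the lowest arterial mouse does so too. The arterial range of Dkk2 starts at 6.8 CPM, under the highest gCap mouse (16.0 CPM). That of Mgp starts at 767 CPM, under the highest Vein mouse (3265 CPM).

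Each mouse contributed between 125 and 3036 cells and between 0 and 31 arterial cells. Expression was compared on UMIs summed over the arterial cells of a mouse, in the 28 mice with at least 10 of them. These were 4, 5 and 6 normoxic and 5, 4 and 4 hyperoxic mice at P3, P7 and P14. Their sums held 43947 to 215480 UMIs. Pairs of libraries shared 12 to 50 droplet barcodes and no barcode of an arterial cell, and the sample barcode of the mouse named in the annotation was the highest in 598 of 604 arterial cells.

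Arterial cells made up a small share of the lung cells recovered, and their share did not pass the test for a difference between oxygen levels at any age. Arterial cells were 1.11% ± 0.272 of the cells of a normoxic mouse at P3 (SD, n = 6), 1.01% ± 0.277 at P7 and 1.08% ± 0.309 at P14. In hyperoxia the shares were 0.892% ± 0.223, 0.713% ± 0.436 and 0.765% ± 0.195. The difference was largest at P14, at 0.314 percentage points (two-sided exact permutation test, p = 0.0649, adjusted p = 0.189 over 102 tests of 34 cell types at 3 ages), and the groups overlapped at each age. Normoxic shares did not differ detectably between ages, with adjusted p = 0.857 in each of 3 exact permutation tests. The direction depended on the denominator at P14. As a share of endothelial cells, arterial cells averaged 4.44% ± 0.997 in normoxia and 5.28% ± 1.32 in hyperoxia (difference 0.842 percentage points, exact permutation p = 0.238), while gCap cells went from 16.4% ± 3.18 to 5.31% ± 1.24 of all cells. Hyperoxic mouse 5 of P7 had 125 cells and no arterial cell, which allows a share of up to 2.4% (counting error only).

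The median UMI count per cell was higher in hyperoxia at P7. The median arterial cell held 4410 ± 465 UMIs in normoxic and 6397 ± 441 UMIs in hyperoxic P7 mice (SD, n = 6 and 5 mice with at least 5 arterial cells), a ratio of 1.45 (exact permutation p = 0.00433). With the mean UMIs per cell in place of the median, 6959 against 8727, the ratio was 1.25 (exact permutation p = 0.052). At P3 the ratio was 0.999 (p = 0.996 by the same exact test) and at P14 it was 1.24 (exact p = 0.145). The mitochondrial percentage of arterial cells was 1.22 times as high in hyperoxia at P14 (5.67% ± 0.454 against 6.93% ± 1.28, exact permutation p = 0.0325, not adjusted for 9 such tests). CPM values take out the total, and results with hyperoxic sums thinned to the normoxic depth are given below where they matter.

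Over all ages, hyperoxic arterial cells had more transcript of adhesion molecules (Vcam1, Icam1), of interferon-induced genes (Isg15, Bst2, Ifitm3) and of the matrix gene Col18a1, and less of Sparcl1, Col4a1 and the arterial transcription factor Mecom. Of these 9 genes, Vcam1, Icam1 and Sparcl1 were still called without the P14 mice and the other 6 were not. Of 2887 genes tested, 57 rose (1.97%) and 56 fell (1.94%) with an adjusted p under 0.05, counting only genes for which 10% or more of the arterial cells at either oxygen level held a UMI. Olfm2, a secreted olfactomedin-domain protein, rose the most, 5.93-fold (log2 2.57 ± 0.28, adjusted p = 5.98e-08). Here and below, the ± beside a log2 change is its standard error (SE), taken from the test statistic, and not an SD over mice. Its levels at P7 were 7.32, 8.03, 20.4, 30.8 and 51.0 CPM in normoxia and 101, 178, 200.1 and 284 CPM in hyperoxia. The groups did not overlap at P7 or P14, and at P3 the gene was at 0, 0, 0 and 31.2 CPM in normoxic and 16.6, 31.5, 48.5, 62.4 and 88.4 CPM in hyperoxic mice, which overlapped. Elsewhere in the endothelium Olfm2 was low, at 0.331 CPM in gCap cells and at 0 in all Vein and lymphatic sums. Ctla2a, a cysteine protease inhibitor, rose 3.14-fold (log2 1.65 ± 0.19, adjusted p = 3.87e-07). It has a close paralogue, and reads shared by such copies can be lost or split in counting. Sfrp2, a secreted Wnt antagonist, rose 3.2-fold (log2 1.68 ± 0.35, adjusted p = 0.00236), and Prnp, the cellular prion protein, rose 2.45-fold (log2 1.30 ± 0.21, adjusted p = 0.000226). Lepr, the leptin receptor, rose 2.16-fold (log2 1.11 ± 0.20, adjusted p = 0.000701).

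The largest decrease over all ages was that of Mctp1, a calcium-binding membrane protein, which fell 3.79-fold (log2 -1.92 ± 0.33, adjusted p = 0.000506). Scn7a, a sodium channel, fell 3-fold (log2 -1.58 ± 0.38, adjusted p = 0.0105), and the taurine transporter Slc6a6 fell 2.6-fold (log2 -1.38 ± 0.27, adjusted p = 0.00163). Cdk19, a Mediator kinase, fell by 1.33 and the phosphatase Ptprr by 1.28 on the log2 scale (adjusted p = 0.000594 and 0.00315). The transcription factors Ebf1 (log2 -1.08 ± 0.21, adjusted p = 0.00125) and Tox3 (log2 -1.16 ± 0.24, adjusted p = 0.00216), the semaphorin Sema6a (log2 -0.9970 ± 0.20, adjusted p = 0.00207) and basigin, Bsg (log2 -0.98 ± 0.18, adjusted p = 0.000701), fell as well. Without the P14 mice, an alternative added after the data had been examined, 20 genes were called in place of 113, 11 higher and 9 lower, of which 19 were among the 113. Olfm2, Ctla2a, Vcam1, Icam1, Plvap, Phlda3, Prnp, Mctp1, Cdk19, Ebf1 and Bsg were still called there.

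Age by age, the counts differed. At P3 no gene of 3395 tested was called (0%) by edgeR's quasi-likelihood test or by DESeq2, with 223 genes at an unadjusted p below 0.05, and 16 genes were called without the filter on low counts. At P7, 16 genes rose (0.471%) and 5 fell (0.147%). At P14, 64 rose (1.89%) and 39 fell (1.15%). The test of the difference itself named 4 genes (0.118%) whose response at P14 differed from that at P3, 3 of them matrix genes. With the pool as a block, 32 genes were called at P7 in place of 21. The counts also leaned on single mice. The P7 count dropped to 11 without hyperoxic mouse 2 and to 13 without hyperoxic mouse 1, and the P14 count to 47 without hyperoxic mouse 3 and to 54 without hyperoxic mouse 5. Thinning the P14 hyperoxic sums to the normoxic depth left 66 calls, and thinning those of P7 left 20.

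At P7, 5 of 13 tested leukocyte adhesion and inflammation genes rose and none fell, beside 0.471% and 0.147% of all genes tested there. The difference between P7 and P3 or P14 responses was not tested. Of 29 genes on this list, 10 were abundant enough to be tested over all ages, 5 rose and none fell (1.97% and 1.94% of all tested genes), with a median log2 change of 0.36 against -0.01 for all tested genes. Vcam1, which binds leukocyte integrins (chr3:116109949-116129688 in GRCm38), rose 3.06-fold over all ages (log2 1.61 ± 0.34, adjusted p = 0.00315). At P7 it stood at 0, 13.9, 30.8, 36.6 and 40.8 CPM in the 5 normoxic mice and at 131, 215, 325 and 436 CPM in the 4 hyperoxic mice. Every hyperoxic mouse lay above every normoxic one, and the change at P7 was 12.1-fold (log2 3.60 ± 0.54, adjusted p = 8.35e-05). Icam1, another integrin ligand that holds leukocytes to the vessel wall, rose 2.32-fold over all ages (log2 1.21 ± 0.26, adjusted p = 0.00315). At P7 it stood at 96.3, 153, 267, 288 and 322 CPM in normoxia and at 302, 821, 1201 and 2231 CPM in hyperoxia. The lowest hyperoxic mouse fell within the normoxic range and the other 3 lay above it (P7 change log2 2.29 ± 0.37, adjusted p = 0.000178).

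Nfkbia encodes the inhibitor of NF-kB that is itself an NF-kB target. It rose 1.48-fold over all ages (log2 0.57 ± 0.16, adjusted p = 0.0273) and 2.34-fold at P7 (log2 1.23 ± 0.23, adjusted p = 0.00165), where normoxic mice had 357, 442, 556, 595 and 779.6 CPM and hyperoxic mice 734, 1085, 1421 and 1971 CPM. A single hyperoxic mouse lay within the normoxic range. Its all-ages call was lost in 4 of the alternatives, with adjusted p from 0.074 without the P14 mice to 0.333 without the pool shared by P3 and P7, and its P7 call without hyperoxic mouse 2 (adjusted p = 0.0513). Plvap, which forms the diaphragms of endothelial caveolae and fenestrae, rose at P7 (log2 1.32 ± 0.26, adjusted p = 0.00393) and at P14 (log2 1.50 ± 0.25, adjusted p = 0.000345), the former without a call when hyperoxic mouse 2 was left out (adjusted p = 0.0513). At P14 it ranged from 393 to 585 CPM (median 542) in the 6 normoxic mice and stood at 1001, 1312, 1362 and 2045 CPM in the 4 hyperoxic mice, with no overlap. Lyve1, a hyaluronan receptor best known from lymphatic vessels, rose 3.13-fold at P7 (log2 1.65 ± 0.25, adjusted p = 9.37e-05), with 466, 582, 919, 1129 and 1252 CPM in normoxia and 2072, 2149, 3102 and 3642 CPM in hyperoxia, with no overlap. Of the lymphatic markers, Mmrn1, Reln, Pdpn, Thy1 and Tbx1 were at 0 in all P7 normoxic sums and none was at 0 in all P7 hyperoxic sums. Without Lyve1 the other 9 lymphatic markers summed to 16.1 to 61.3 CPM in P7 normoxic and 38.4 to 53.7 CPM in P7 hyperoxic mice, which overlapped. All 10 summed to 481.7 to 1281 CPM in P7 normoxic and 2110.0 to 3696 CPM in P7 hyperoxic mice, of which Lyve1 alone made up 466 to 1252 and 2072 to 3642 CPM. Their part in the rise of Lyve1 was not tested. At P14, 2 of 13 tested members of the adhesion list rose, beside 1.89% of all tested genes. They were Plvap and the chemokine Cxcl16 (log2 1.81 ± 0.53, adjusted p = 0.0493), the latter on the edge of the threshold (adjusted p = 0.0727 by DESeq2).

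**Figure D2:**
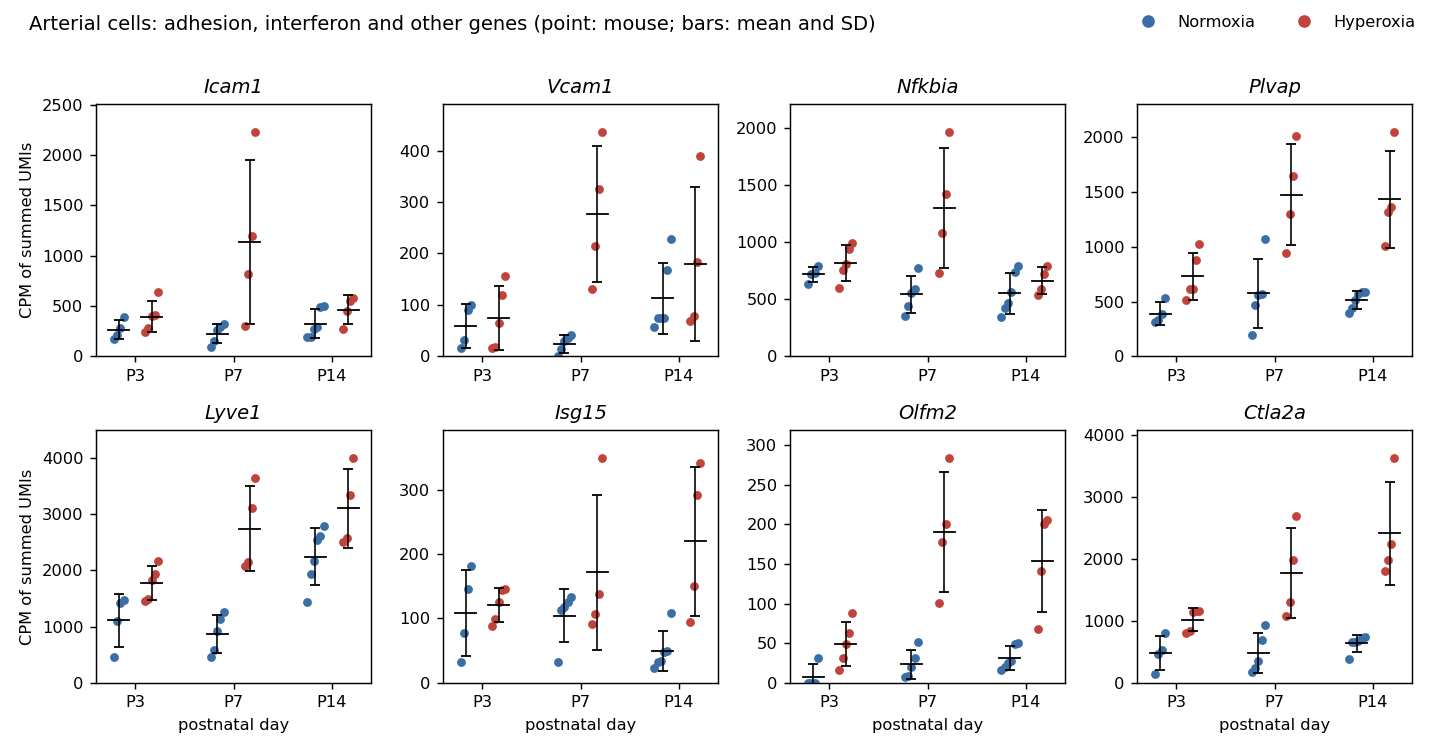
CPM of UMIs summed over the arterial cells of each mouse, for 8 genes, by postnatal day and oxygen level. Each point is a mouse, the line is the group mean and the bar its SD (n = 4, 5 and 6 normoxic and 5, 4 and 4 hyperoxic mice at P3, P7 and P14). Vcam1 and Lyve1 separate the groups at P7, Plvap at P14, and Olfm2 and Ctla2a at both of these ages. The genes were picked for called changes, so this separation is a description.

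Icam1, Nfkbia and Isg15 were the only 3 of the 45 genes that rose over all ages and have an entry in the promoter table to hold the NF-kB motif GGANTTTCC on either strand between 250 bases before and 50 bases after the start. That is 6.667% of the 45 genes, against 1.451% of the 27025 genes in the table and 2.174% of the 46 genes with an entry that fell. At P7 the motif was in 20.0% of 10 genes with an entry that rose and 0% of 2 that fell. At P14 it was in 2.128% of 47 that rose and 3.226% of 31 that fell. By window, 1.254% of all 32851 promoters of that length hold it. Vcam1, Plvap and Lyve1 have no entry there. The windows of Icam1 (chr9:21015690-21015989 on the plus strand) and Nfkbia (chr12:55492598-55492897 on the minus strand) are shown in RefSeq sequence of GRCm38.p6, 5′ to 3′ along the gene, because both genes rose at P7. Capitals mark the match, which begins 153 bases before the start in Icam1 and 178 and 29 bases before it in Nfkbia. A match is a description of the sequence and no evidence of binding.
Icam1: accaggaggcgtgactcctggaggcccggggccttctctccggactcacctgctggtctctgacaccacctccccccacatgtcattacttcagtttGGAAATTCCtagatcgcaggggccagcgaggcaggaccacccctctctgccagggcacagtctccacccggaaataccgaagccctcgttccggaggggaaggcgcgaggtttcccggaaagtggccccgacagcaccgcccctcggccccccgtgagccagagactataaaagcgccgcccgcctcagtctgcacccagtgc
Nfkbia: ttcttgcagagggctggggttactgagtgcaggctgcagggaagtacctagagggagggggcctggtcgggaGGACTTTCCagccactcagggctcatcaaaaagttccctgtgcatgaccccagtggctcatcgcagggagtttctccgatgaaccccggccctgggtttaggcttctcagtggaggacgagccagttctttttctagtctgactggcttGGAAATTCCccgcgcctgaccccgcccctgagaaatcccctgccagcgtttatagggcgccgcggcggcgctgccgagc

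Over all ages 3 of 13 tested interferon-induced genes rose (Isg15, Bst2 and Ifitm3), beside 1.97% of all tested genes, and at P14 5 of 16 rose and none fell (1.89% and 1.15% of all tested genes), with a median log2 change of 0.76 against 0.000178 for all tested genes. Isg15, a ubiquitin-like modifier, rose 4.07-fold at P14 (log2 2.03 ± 0.45, adjusted p = 0.00736). It ranged from 22.4 to 109 CPM (median 41.2) in normoxia and stood at 94.2, 150.4, 292 and 341 CPM in hyperoxia. The lowest hyperoxic mouse lay under the highest normoxic one. This call was lost without hyperoxic mouse 3 (adjusted p = 0.0877). Bst2, which tethers budding virus particles, rose 2.17-fold (log2 1.12 ± 0.21, adjusted p = 0.00147), with 204 to 294 CPM (median 278) in normoxia and 426, 518, 647 and 705 CPM in hyperoxia, with no overlap. Ifitm3, which restricts virus entry, was far more abundant and rose 1.7-fold (log2 0.76 ± 0.15, adjusted p = 0.00331), with 1858 to 2709 CPM (median 2165) in normoxia and 3231, 3276, 4129 and 4218 CPM in hyperoxia, again with no overlap. Ly6a (log2 1.12 ± 0.26, adjusted p = 0.0117) and the MHC class I gene H2-D1 (log2 0.75 ± 0.19, adjusted p = 0.0207) completed the group. The call of Ly6a was lost without hyperoxic mouse 5 (adjusted p = 0.125) and that of H2-D1 without mouse 1 or 3 (adjusted p = 0.106 and 0.182). Both genes belong to families of closely similar genes, and so does Ifitm3, so their counts can include or lose reads of relatives. At P7, where 0.471% of all tested genes rose, none of the 16 passed, with a median of -0.06. Whether the response of the list differed between ages was tested gene by gene for P14 against P3 alone, and none of its members was called.

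The interferon element GAAANNGAA was found in the windows of 8 of the 45 genes with a promoter entry that rose over all ages (17.78%) and of 7 of the 46 that fell (15.22%), against 9.761% of the 27025 genes in the table and 8.56% of all 32851 promoters. The share was thus close to that of the genes that fell. The 8 include the 3 interferon genes just described. Their windows show it in different places. In Isg15 (chr4:156200769-156201068 on the minus strand) 3 overlapping matches begin 78, 72 and 66 bases before the start and read as 1 run. In Bst2 (chr8:71537423-71537722 on the minus strand) 2 overlapping matches begin 130 and 124 bases before the start. In Ifitm3 (chr7:141010695-141010994 on the minus strand) the 2 matches lie apart, just after the start. Capitals mark the matches.
Isg15: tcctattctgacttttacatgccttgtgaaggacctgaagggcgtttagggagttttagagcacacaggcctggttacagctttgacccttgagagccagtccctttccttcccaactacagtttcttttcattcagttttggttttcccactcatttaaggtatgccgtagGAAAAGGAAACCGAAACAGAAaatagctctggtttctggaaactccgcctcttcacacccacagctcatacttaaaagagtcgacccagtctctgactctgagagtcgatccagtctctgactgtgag
Bst2: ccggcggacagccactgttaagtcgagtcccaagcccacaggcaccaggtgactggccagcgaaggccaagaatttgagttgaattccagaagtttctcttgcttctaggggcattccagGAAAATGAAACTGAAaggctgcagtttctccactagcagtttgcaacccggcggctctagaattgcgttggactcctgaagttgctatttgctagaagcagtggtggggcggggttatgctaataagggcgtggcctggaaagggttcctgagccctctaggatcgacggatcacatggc
Ifitm3: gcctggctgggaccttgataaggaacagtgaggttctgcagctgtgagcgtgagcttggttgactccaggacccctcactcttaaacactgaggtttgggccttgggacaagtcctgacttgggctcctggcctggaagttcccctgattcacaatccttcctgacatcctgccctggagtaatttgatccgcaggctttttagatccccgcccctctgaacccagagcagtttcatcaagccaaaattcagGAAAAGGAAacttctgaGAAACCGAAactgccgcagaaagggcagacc

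Matrix genes supplied 3 of the 4 responses that differed between P14 and P3. Of 32 tested members, 5 rose and 2 fell over all ages, beside 1.97% and 1.94% of all tested genes. At P14, 5 rose and 1 fell, beside 1.89% and 1.15%, and the median log2 change was 0.26 against 0.000178 for all tested genes. Fn1, fibronectin (chr1:71585520-71653200 in GRCm38), rose 3.6-fold at P14 (log2 1.85 ± 0.20, adjusted p = 1.56e-07). It ranged from 243 to 397 CPM (median 314) in normoxia and stood at 962, 1001, 1245 and 1350.1 CPM in hyperoxia. At P3 the values were 519.6, 683, 789.5 and 891 CPM in normoxia and 299, 509.8, 551, 614 and 637 CPM in hyperoxia, which overlapped with lower hyperoxic values. The difference between the responses at P14 and P3 was log2 2.31 ± 0.30, adjusted p = 7.25e-06. The call of Fn1 over all ages (log2 0.64 ± 0.19, adjusted p = 0.0458) was lost without the P14 mice (adjusted p = 1). Col18a1, whose collagen XVIII carries the endostatin fragment, rose 5.31-fold at P14 (log2 2.41 ± 0.33, adjusted p = 1.86e-05), with 8.37 to 40.8 CPM (median 31.9) in normoxia and 142, 150.4, 155 and 250.3 CPM in hyperoxia, with a difference from P3 of log2 2.37 ± 0.46, adjusted p = 0.00963. Fbln5, an elastic fibre assembly protein, rose 2.84-fold at P14 (log2 1.50 ± 0.22, adjusted p = 4.15e-05), with 717 to 1482 CPM (median 909.7) in normoxia and 2064, 2294, 3390.4 and 3442 CPM in hyperoxia, with a difference from P3 of log2 1.68 ± 0.31, adjusted p = 0.00664. None of these 3 overlapped between oxygen levels at P14, which is a description of genes picked for a call in the same mice. Their calls held in each alternative with a P14 value.

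The same 3 genes were among the 10 matrix genes that were lower at P14 than at P3 in normoxia, where age and pool cannot be told apart. In normoxia from P3 to P14, Fbln5 fell by 1.81 on the log2 scale (adjusted p = 4.58e-07), Col18a1 by 1.82 (adjusted p = 0.000449) and Fn1 by 1.17 (adjusted p = 0.000152). The mean of Fbln5 was 3461 ± 393 CPM in P3 normoxic mice, 989 ± 259 CPM in P14 normoxic mice and 2798 ± 721 CPM in P14 hyperoxic mice (SD). Both comparisons use the same 6 normoxic P14 mice, so their signs are not independent. Sfrp2 had the same pattern, with 0 to 25.0 CPM (median 13.8) in P14 normoxia against 86.8, 148, 175 and 319 CPM in P14 hyperoxia (log2 3.47 ± 0.71, adjusted p = 0.00418), and a fall from P3 to P14 in normoxia (log2 -2.88 ± 0.75, adjusted p = 0.00857). The collagen chaperone Serpinh1 (log2 0.80 ± 0.21, adjusted p = 0.0259) and Sparc (log2 0.68 ± 0.19, adjusted p = 0.0447) rose at P14, and both calls were lost in thinned sums (adjusted p = 0.182 and 0.0667). Ecm1, a secreted glycoprotein, rose over all ages (log2 1.07 ± 0.21, adjusted p = 0.00146) and did not overlap between oxygen levels at P7.

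Against this, Sparcl1, an anti-adhesive matricellular protein, was lower in hyperoxia at every age. It fell 2.41-fold over all ages (log2 -1.27 ± 0.19, adjusted p = 3.18e-05), and the groups did not overlap at P3, P7 or P14. The values were 332, 336, 546 and 733 CPM in normoxia and 116, 212, 270.4, 291 and 302 CPM in hyperoxia at P3, although P3 alone gave no call (log2 -0.97 ± 0.32, adjusted p = 0.435). At P14 they ranged from 231 to 467 CPM (median 343) in normoxia and stood at 114, 125, 126 and 155 CPM in hyperoxia. The P14 call was lost without hyperoxic mouse 3 or 4 (adjusted p = 0.073 and 0.0548). Col4a1, a basement membrane collagen chain, fell 1.91-fold (log2 -0.94 ± 0.26, adjusted p = 0.0284). In normoxia it averaged 256 CPM in arterial, 1657 CPM in gCap and 1857 CPM in aCap sums, and the part of capillary RNA in its fall was not tested.

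**Figure D3:**
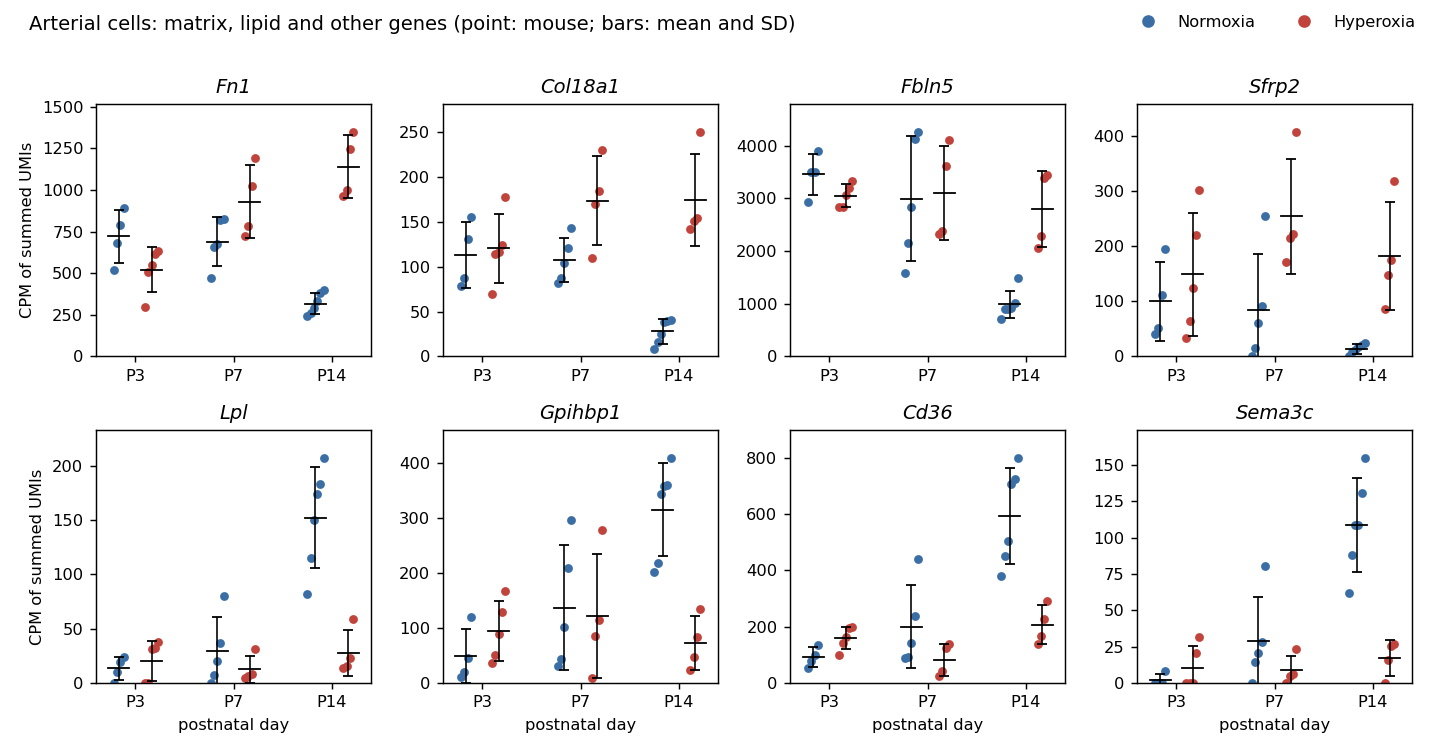
CPM of UMIs summed over the arterial cells of each mouse for 4 matrix or secreted genes and 4 lipid or capillary-enriched genes, by postnatal day and oxygen level. Points are mice, lines means and bars SD (n as in the plot of adhesion genes). At P14 every panel separates the oxygen levels, Fn1, Col18a1, Fbln5 and Sfrp2 upward and Lpl, Gpihbp1, Cd36 and Sema3c downward. Each gene had a called change at P14, so this separation is a description of chosen genes.

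On the fatty acid list 5 of 10 tested members fell at P14 and none rose, beside 1.15% and 1.89% of all tested genes, with a median log2 change of -1.21. Lpl, lipoprotein lipase (chr8:68880491-68907448 in GRCm38), fell 5.52-fold (log2 -2.46 ± 0.51, adjusted p = 0.00424), with 81.6 to 207 CPM (median 162) in normoxia and 13.5, 15.8, 22.8 and 58.5 CPM in hyperoxia. Gpihbp1, which carries that lipase across the endothelium, fell 3.69-fold (log2 -1.88 ± 0.52, adjusted p = 0.0354), with 202 to 409 CPM (median 351) in normoxia and 22.8, 47.4, 83.6 and 135 CPM in hyperoxia. The fatty acid receptor Cd36 fell 2.7-fold (log2 -1.43 ± 0.32, adjusted p = 0.00801), with 381 to 799.7 CPM (median 605) in normoxia and 137, 166, 229 and 292 CPM in hyperoxia. Each of these left no overlap between oxygen levels, again a description of genes picked for a call. Fmo1, a flavin-containing monooxygenase, fell 2.44-fold (log2 -1.29 ± 0.21, adjusted p = 0.00032), and its response differed from that at P3 (log2 -1.70 ± 0.34, adjusted p = 0.00996). Mgll, monoacylglycerol lipase, fell at P14 (log2 -1.81 ± 0.42, adjusted p = 0.0108) and over all ages (log2 -1.27 ± 0.25, adjusted p = 0.00177). The calls of Gpihbp1 (adjusted p = 0.0718) and of the transporter Abcg2 (adjusted p = 0.11) were lost in sums thinned to the normoxic depth, and that of Cd36 without hyperoxic mouse 3 (adjusted p = 0.0514). The call of Mgll was lost without hyperoxic mouse 4 or 5 (adjusted p = 0.0562 and 0.0864), and that of Gpihbp1 also without mouse 1, 3 or 4 (up to 0.134).

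Lpl, Gpihbp1, Cd36, Sema3c and Tox3 are also markers of gCap cells. Of 7 tested gCap markers, these 5 fell at P14 and Plvap rose, beside 1.15% and 1.89% of all tested genes, and gCap cells were 16.4% of all cells in normoxic and 5.31% in hyperoxic P14 mice. The 10 gCap markers together summed to 1811 to 2627 CPM in normoxic and 1411 to 2550.0 CPM in hyperoxic arterial sums of P14, in which Glp1r was at 0. Without Plvap, the other 9 summed to 1228 to 2161 CPM (mean 1745 ± 334, SD) in normoxia and 409.6 to 701.9 CPM (mean 562 ± 130.4) in hyperoxia, with no overlap. Sftpc, the surfactant protein C gene of alveolar type 2 cells, was found in all arterial sums, with 702 to 809 CPM (median 747) in P14 normoxia and 455, 458, 532 and 577 CPM in P14 hyperoxia (log2 -0.54 ± 0.17, adjusted p = 0.0708). The 10 epithelial markers summed to 1586 to 2236 CPM and 1026 to 1635 CPM in these groups. The part of capillary or epithelial RNA in the falls at P14 was not tested. Markers of mural cells (47.37 to 468.0 CPM over all mice, for 12 genes), immune cells (113.2 to 561.6 CPM, 11 genes) and red cells (0 to 369.3 CPM, 5 genes) were found at lower levels. The 10 fibroblast markers reached 1333 CPM in 1 P3 normoxic mouse, and at P14 they summed to 179.5 to 338.9 CPM in normoxia and 197.4 to 409.6 CPM in hyperoxia, which overlapped. None of the fibroblast, epithelial or immune markers tested was called for hyperoxia at any age or over all ages.

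On the arterial identity list 1 of 22 tested members changed over all ages, a share near the background of 1.97% of all tested genes that rose plus 1.94% that fell. The transcription factor Mecom fell 1.71-fold (log2 -0.77 ± 0.15, adjusted p = 0.00177). Gja5 changed by log2 -0.04 ± 0.13 (adjusted p = 0.936), Bmx by 0.05 ± 0.14 (adjusted p = 0.929), Dkk2 by 0.06 ± 0.27 (adjusted p = 0.953) and Mgp by 0.15 ± 0.26 (adjusted p = 0.834), each under its own error, and these signs turned under 1 or 2 of the alternatives. The clusters were made from such genes, so these values describe the cells that kept the arterial label. None of the 9 tested Notch genes was called, a count near the same background, among them Notch1 (log2 -0.21 ± 0.12, adjusted p = 0.416), the ligand Dll4 (log2 -0.35 ± 0.17, adjusted p = 0.293) and the target Hey1 (log2 0.23 ± 0.13, adjusted p = 0.401). A change well above its own error could go uncalled with sums of this depth. Sox17 (log2 -0.42 ± 0.14, adjusted p = 0.0972) and Cxcr4 (log2 -0.80 ± 0.29, adjusted p = 0.118), which were not called, are examples. The lack of a call thus does not exclude a change.

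Among genes of vascular tone, 1 of 15 tested members rose and 2 fell over all ages, beside 1.97% and 1.94% of all tested genes. Plat, tissue plasminogen activator, rose 1.73-fold (log2 0.79 ± 0.18, adjusted p = 0.00535). Slco2a1, the prostaglandin transporter (log2 -0.59 ± 0.16, adjusted p = 0.0259), and Calcrl, the receptor component for adrenomedullin (log2 -0.49 ± 0.12, adjusted p = 0.011), fell. Klf2, the shear stress factor, had log2 -0.42 ± 0.14 (adjusted p = 0.095). In the BMP and TGF-beta list 2 of 14 rose, beside the same 1.97%, the ligand Bmp6 (log2 0.70 ± 0.17, adjusted p = 0.0105) and the co-receptor Eng (log2 0.49 ± 0.13, adjusted p = 0.0159). Vegfa rose 1.48-fold (log2 0.56 ± 0.14, adjusted p = 0.0147), the only one of 6 tested members of the VEGF, angiopoietin and apelin list to pass. At P14 its values ranged from 300.3 to 465 CPM (median 433) in normoxia and stood at 451, 505, 639 and 1160.5 CPM in hyperoxia, where 3 of 4 hyperoxic mice lay above the normoxic range. Plat, Slco2a1, Calcrl, Bmp6, Eng and Vegfa lost their calls when the P14 mice were left out.

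Of the targets of p53, the transcription factor activated by DNA damage, 7 of 25 were abundant enough to be tested over all ages. Of these 2 rose, Phlda3 and Cdkn1a, where 1.97% of all tested genes rose, and the median of the list was log2 -0.18. Phlda3, an inhibitor of Akt, rose 2.23-fold (log2 1.16 ± 0.16, adjusted p = 9.83e-06). It stood at 90.4, 104, 114 and 119.9 CPM in normoxic and 195, 198, 243, 327 and 332 CPM in hyperoxic P3 mice, with no overlap. At P7 it stood at 120.4, 153, 174, 212 and 379.7 CPM in normoxia and 239, 362, 369 and 406 CPM in hyperoxia, which overlapped through 1 normoxic mouse, and at P14 it ranged from 58.4 to 149.6 CPM (median 77.2) in normoxia and stood at 250.3, 251, 268 and 276 CPM in hyperoxia, with no overlap. Cdkn1a, the cell cycle inhibitor p21, rose 1.59-fold (log2 0.67 ± 0.18, adjusted p = 0.0259) with overlapping groups at every age, and its call was lost in 4 of the alternatives (adjusted p from 0.0531 to 0.19). Plk2, another target, fell at P14 (log2 -1.07 ± 0.27, adjusted p = 0.0192). None of the 12 tested antioxidant genes of the NRF2 list was called over all ages, among them Prdx1 (log2 0.27 ± 0.11, adjusted p = 0.218). With 3.91% of all tested genes called, this count was near the background. The 33 members of that list summed to 4309 to 6363 CPM (median 5572) in normoxic and 5234 to 6792 CPM (median 5998) in hyperoxic mice, a difference that was not tested.

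Several p53 targets responded less in arterial cells than in the neighbouring endothelial types. In gCap cells Cdkn1a rose by log2 2.64 ± 0.16, in aCap cells by 1.97 ± 0.16 and in Vein cells by 2.28 ± 0.21, against 0.67 ± 0.18 in arterial cells. The difference itself, tested as an interaction of cell type and oxygen within mice, was log2 -1.96 ± 0.18, adjusted p = 1.22e-11 against gCap, -1.26 ± 0.18, adjusted p = 7.26e-07 against aCap and -1.76 ± 0.24, adjusted p = 2.63e-06 against Vein. Bax, which permeabilises mitochondria in apoptosis, averaged 161 CPM in normoxic and 185 CPM in hyperoxic arterial sums, and 201 and 758 CPM in gCap sums (difference log2 -1.77 ± 0.15, adjusted p = 1.93e-13). Gdf15, a stress cytokine, averaged 8.17 and 11.6 CPM in arterial cells but 5.44 and 227 CPM in gCap, 7.6 and 189 CPM in aCap and 9.4 and 184 CPM in Vein cells. It had a UMI in under 5% of arterial cells at either oxygen level, so its differences are a description. Among targets with a UMI in 10% or more of the cells of both types at either oxygen level, the arterial response was lower for 11 of 13 against gCap, 8 of 13 against aCap and 7 of 12 against Vein, beside 4.26%, 5.35% and 2.4% of all genes so found, and higher for none. A target can meet this limit through its rise in hyperoxia in the other type, so the counts are a description. For Plk2 and Btg2 the arterial mean was also lower in hyperoxia, though neither change was called over all ages. Plk2 averaged 620.1 and 479 CPM in normoxic and hyperoxic arterial sums (log2 -0.48 ± 0.16, adjusted p = 0.0875) and 603 and 683 CPM in gCap sums, and Btg2 1120.0 and 993 CPM (log2 -0.18 ± 0.11, adjusted p = 0.443) and 438 and 504 CPM.

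**Figure D4:**
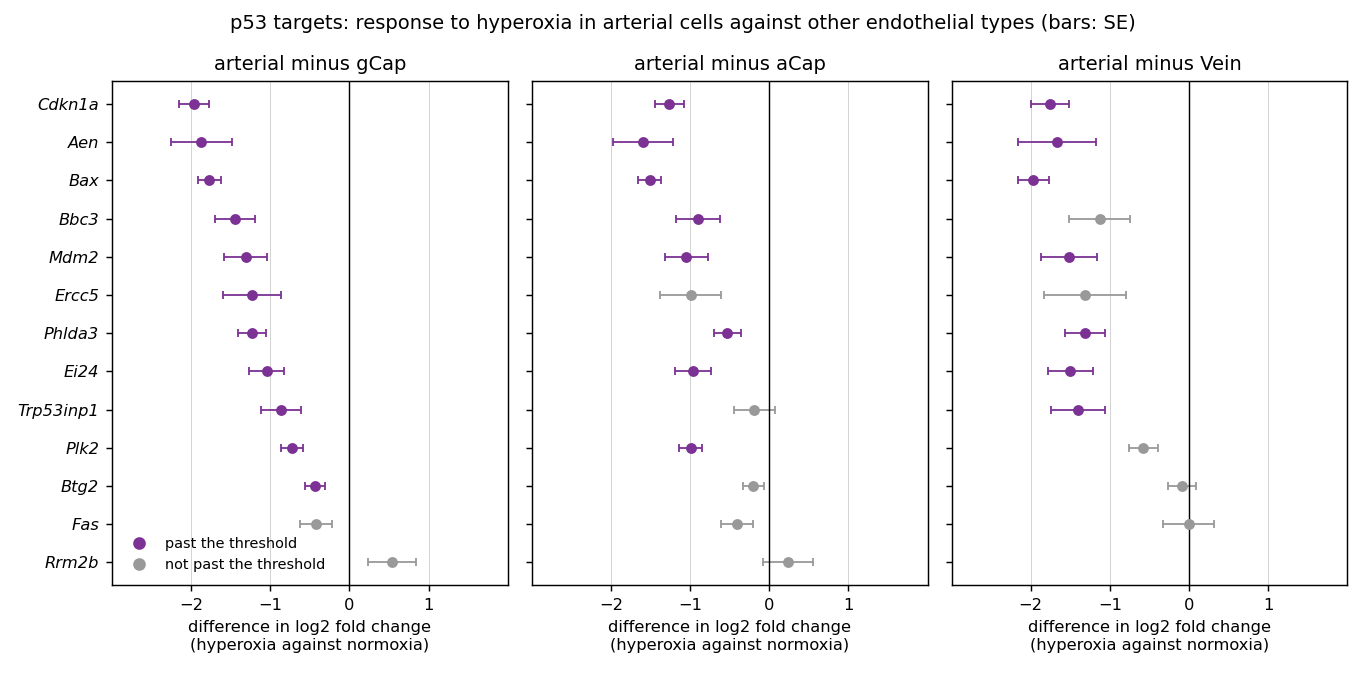
Difference in response to hyperoxia between arterial cells and each of 3 other endothelial types for p53 targets with a UMI in 10% or more of the cells of both types at either oxygen level. The x axis is the arterial log2 fold change minus that of the other type, points are estimates, bars are SE and purple points passed an adjusted p of 0.05 with the detection criterion. The purple points (11 of 13, 8 of 13 and 7 of 12) lie to the left of 0, with Cdkn1a at log2 -1.96 against gCap, and Rrm2b, shown for gCap and aCap, lies to the right of it without passing.

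Across all genes, the response of arterial cells was higher for 190 of 7371 genes (2.58%) and lower for 286 (3.88%) against gCap, higher for 336 of 7019 (4.79%) and lower for 343 (4.89%) against aCap, and higher for 96 of 4907 (1.96%) and lower for 119 (2.43%) against Vein. To set the types side by side at like cell numbers, gCap and aCap cells were cut down to the arterial cell number of each mouse. Vein cells were cut down to the smaller of the arterial and venous numbers, so their cells and mice were fewer. From 550 cells of 28 mice, 113 of 2887 tested genes were called in arterial cells (3.91%), 413 of 2019 in gCap (20.5%) and 678 of 2177 in aCap (31.1%). For Vein cells it was 891 of 2881 (30.9%) from 448 cells of 25 mice. The median summed UMIs per mouse were 122220.0 for arterial, 79942 for gCap, 87822 for aCap and 119598 for Vein cells. The matched draw is a description without a test.

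Genes of the arterial identity list differed in both directions. Members found in arterial cells alone say nothing about a response elsewhere, so the count covers those with a UMI in 10% or more of the cells of both types at either oxygen level, a limit set after the data had been examined. The arterial response was higher for 6 and lower for 2 (Nrp1, Tm4sf1) of 18 such members against gCap, higher for 5 and lower for 2 (Unc5b, Tm4sf1) of 13 against aCap, and higher for 5 and lower for none of 15 against Vein. Over all genes found in both types it was higher for 2.86%, 4.49% and 1.97% and lower for 4.26%, 5.35% and 2.4%. A member can meet this limit through its level in normoxia in the other type, so the counts are a description. Cxcl12, Hey1 and Sema3g, 3 of the 5 higher against aCap, had a UMI in 8.1%, 9.0% and 8.6% of all aCap cells. Gja4, connexin 37, changed by log2 -0.08 ± 0.12 in arterial cells but fell by 1.20 in gCap, by 2.27 in aCap and by 2.39 in Vein cells (differences log2 1.12 ± 0.17, adjusted p = 1.98e-06, 2.24 ± 0.27, adjusted p = 2.45e-08 and 2.47 ± 0.36, adjusted p = 7.52e-06). Cxcl12, a chemokine that arterial cells make in quantity, averaged 3545 and 3317 CPM in normoxic and hyperoxic arterial cells and 159 and 24.6 CPM in aCap cells (difference log2 2.40 ± 0.27, adjusted p = 7.03e-09). Efnb2, ephrin-B2, also had a higher response in arterial cells against all 3 types, at log2 0.49 ± 0.11, adjusted p = 0.00331 against gCap. Vegfa rose in arterial cells and fell in gCap (log2 -0.47 ± 0.14) and aCap cells (log2 -0.89 ± 0.17), a difference of log2 1.05 ± 0.15, adjusted p = 1.47e-06 and 1.46 ± 0.20, adjusted p = 4.26e-07.

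On the matrix list, of members found in both types, the arterial response was higher for 7 and lower for 12 of 30 against gCap, higher for 7 and lower for 8 of 26 against aCap, and higher for 2 and lower for 5 of 32 against Vein, with the shares of all genes as above. Here too a member can meet the limit through a single oxygen level, so the counts are a description. Col4a1 fell in arterial cells and rose in gCap (log2 0.78 ± 0.09), aCap (log2 0.79 ± 0.08) and Vein cells (log2 0.68 ± 0.16), with differences of log2 -1.73 ± 0.24, adjusted p = 5.27e-07, -1.75 ± 0.24, adjusted p = 4.18e-07 and -1.84 ± 0.26, adjusted p = 5.52e-06. Col4a2, Hspg2, Lama4 and Tinagl1 were the other 4 members with a lower response in arterial cells against all 3 types, and the elastic fibre gene Mfap2 the only one with a higher response against all 3, by log2 1.67 ± 0.25, adjusted p = 1.78e-05 against Vein. Col18a1 rose in arterial cells over all ages (log2 0.94 ± 0.22, adjusted p = 0.00751), with differences of -0.98 ± 0.31, adjusted p = 0.0385 against gCap, -1.92 ± 0.29, adjusted p = 2.58e-06 against aCap and 0.04 ± 0.21, adjusted p = 0.946 against Vein. For the adhesion genes the picture was mixed. Plvap responded more in arterial cells than in all 3 (log2 0.85 ± 0.17, adjusted p = 0.000508 against gCap). Vcam1 was hardly found in gCap and aCap cells, with a UMI in 1.75% and 1.99% of them and means of 5.23 and 5.77 CPM and 6.09 and 4.37 CPM in normoxia and hyperoxia, so its response there could not be compared. In Vein cells Vcam1 rose as well (log2 1.30 ± 0.42, adjusted p = 0.0174), and the difference was log2 0.36 ± 0.60, adjusted p = 0.806. Lyve1 responded less in arterial cells than in gCap (log2 -0.47 ± 0.13, adjusted p = 0.0172) but more than in Vein (log2 0.63 ± 0.17, adjusted p = 0.0193). The differences for Icam1 did not pass, at log2 -0.48 ± 0.23, adjusted p = 0.238 against gCap and 0.51 ± 0.22, adjusted p = 0.203 against Vein. Isg15 responded more in arterial cells than in gCap (log2 0.71 ± 0.22, adjusted p = 0.0322) and aCap (log2 1.10 ± 0.25, adjusted p = 0.00132), and the difference against Vein was 0.77 ± 0.40, adjusted p = 0.305.

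In normoxia, the called differences lay between P14 and the earlier ages, where age and pool cannot be told apart. From P3 to P7 none of 3395 genes was called (0%) by edgeR or DESeq2, with 251 at an unadjusted p below 0.05. From P7 to P14, 186 rose (5.48%) and 113 fell (3.33%), and from P3 to P14, 265 rose (7.81%) and 188 fell (5.54%). Without normoxic mouse 4 or 6 of P3 the last count was 252 or 266 in all. Of the fatty acid genes 6 of 10 rose from P3 to P14, led by Lpl (10.1-fold, log2 3.34 ± 0.56, adjusted p = 7.28e-05), Cd36 (6.3-fold, log2 2.66 ± 0.36, adjusted p = 4.78e-06) and Gpihbp1 (5.84-fold, log2 2.54 ± 0.55, adjusted p = 0.00155), and the binding protein Fabp5 fell (log2 -1.65 ± 0.39, adjusted p = 0.00356). Lpl stood at 0, 10.0, 19.5 and 24.0 CPM at P3. Sema3c, a secreted guidance cue, was at 0 in 3 of 4 P3 mice and ranged from 61.7 to 155 CPM (median 109) at P14, and its values in hyperoxic P14 mice were 0, 15.8, 25.1 and 26.9 CPM. As above, these P14 normoxic mice are the ones the hyperoxic mice were compared with. The gCap markers summed to 592.1 to 1071 CPM in arterial sums at P3 and 1811 to 2627 CPM at P14 in normoxia, and their part in these rises was not tested.

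Of 25 tested arterial identity genes, 2 rose and 6 fell from P3 to P14 in normoxia, beside 7.81% and 5.54% of all tested genes, so the share that rose was near the background. Those that rose were Efnb2 (log2 0.9999 ± 0.17, adjusted p = 6.81e-05) and Sema3g (log2 1.18 ± 0.24, adjusted p = 0.000884), and those that fell were Dkk2 (log2 -2.21 ± 0.46, adjusted p = 0.00109), the Notch ligand Jag1 (log2 -1.34 ± 0.33, adjusted p = 0.00498), Gja4 (log2 -0.85 ± 0.17, adjusted p = 0.000884), Sox17 (log2 -0.75 ± 0.24, adjusted p = 0.0314), Stmn2 and Cxcl12. The BMP and TGF-beta list had 6 of 16 members that rose and none that fell, beside 7.81% and 5.54% of all tested genes: the ligand Bmp6 (log2 1.68 ± 0.33, adjusted p = 0.00062), the receptors Bmpr2 (log2 1.57 ± 0.22, adjusted p = 5.63e-06), Acvrl1 (log2 0.77 ± 0.23, adjusted p = 0.0223) and Eng (log2 1.16 ± 0.22, adjusted p = 0.000454), and the inhibitory Smad6 (log2 1.49 ± 0.21, adjusted p = 8.09e-06) and Smad7 (log2 0.70 ± 0.17, adjusted p = 0.00468). Bmpr2, the receptor mutated in heritable pulmonary arterial hypertension, stood at 312, 377, 436 and 542 CPM at P3 and ranged from 1028 to 1593 CPM (median 1196) at P14, with no overlap. The matrix list had 10 members that fell and 3 that rose of 32. Fbn1 (log2 -1.0021 ± 0.24, adjusted p = 0.00394) and Mfap4 (log2 -1.77 ± 0.37, adjusted p = 0.00109) joined the genes above, and Col4a1 rose (log2 1.58 ± 0.42, adjusted p = 0.0102). The part of capillary RNA in the rise of Col4a1 was not tested. Mfap4 is also a fibroblast marker. The 10 fibroblast markers summed to 190.9 to 1333 CPM (mean 577) in P3 and 179.5 to 338.9 CPM (mean 265) in P14 normoxic mice, and the other 9 without Mfap4 to 130.6 to 1164 CPM and 146.9 to 319.5 CPM. Their part in the falls of matrix genes was not tested. The vascular tone genes Ace (log2 0.93 ± 0.21, adjusted p = 0.00192) and Ece1 (log2 1.02 ± 0.21, adjusted p = 0.00106), which process angiotensin and endothelin, rose.

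Of 10 tested imprinted growth genes, 3 fell from P3 to P14 in normoxia, beside 5.54% of all tested genes. H19, a maternally expressed long noncoding RNA, fell from 32.0, 52.0, 62.3 and 342 CPM at P3 to 0 in 5 of 6 normoxic mice at P14 (log2 -5.58 ± 1.14, adjusted p = 0.000911), and Plagl1 (log2 -1.87 ± 0.52, adjusted p = 0.0146) and Mest (log2 -1.76 ± 0.57, adjusted p = 0.0363) fell as well. At P7 H19 was higher in hyperoxia, 0, 7.32, 9.28, 16.1 and 20.4 CPM against 4.8, 77.0, 199 and 392 CPM (log2 3.87 ± 0.79, adjusted p = 0.00637), with 1 hyperoxic mouse inside the normoxic range, and the call was lost without hyperoxic mouse 1 (adjusted p = 0.147). None of the 5 members tested over all ages was called, beside 3.91% of all tested genes, among them Cdkn1c (log2 0.63 ± 0.26, adjusted p = 0.196).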

How the data were processed

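Lungs were profiled with droplet 3′ RNA sequencing in MULTI-seq pools. The authors aligned reads with Cell Ranger 3.0.2 to mm10, assigned cells to mice by sample barcode, and deposited UMI counts per cell together with an annotation of 34 cell types and a mitochondrial percent per cell, which also gives each mouse its age and oxygen level. Deposited cells had passed the authors' doublet and quality filters, and none was removed here.

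UMI counts of arterial cells were summed per mouse (at least 10 cells) and tested with edgeR 4.0.16 in R 4.3.3 (quasi-likelihood test, TMM, default filter on low counts), with age as covariate over all ages or 1 mean per group. Values are CPM of the summed UMIs, with total UMIs of 43947 to 215480 per mouse. Adjusted p-values (Benjamini-Hochberg) cover all genes tested. A call needs an adjusted p below 0.05 and a UMI in 10% of cells of a group compared. The difference in response between types was an interaction term with each mouse as a block. Mice come from separate animals. The edgeR models for hyperoxia over all ages, at P14 and for arterial against gCap cells were run on simulated counts with known changes. The other fits and the permutation tests were not.

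The members and lists were chosen with earlier results of these data known. Named genes are the largest called changes with a log2 CPM of at least 5 (12 each way over all ages, 6 per age and for P14 against P3, 4 elsewhere), the 4 markers, called members of 25 lists and the 3 most abundant members of each. Overlap between groups is a description of genes so picked, and its share over all tested genes was not counted. Alternatives were DESeq2 1.42.0, other cell minimums, no filter, no age covariate, pools as a block, thinned sums and mice or pools left out. Pools pair normoxic and hyperoxic mice by design, and their deviations were weakly correlated (0.165, 0.187 and 0.129 at P3, P7 and P14). Sequences are RefSeq, GRCm38.p6. Intervals and floors cover counting error only.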

Additional observations from a re-analysis of the deposited data

Results flagged for a closer look

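Among 174 groups of 4 to 6 mice checked for a mouse far from the others, 11 held one. The rule is set to flag about 1 in 20 groups of normally spread values, and its rate for low counts was not worked out. At P3 in normoxia, Olfm2 reached 31.2 CPM in 1 mouse and Sema3c 7.99 CPM in 1 mouse, with the other 3 mice at 0. Both values rest on very few UMIs, since these sums held 96261 to 153743 UMIs. With the others at 0, any count is flagged. At P3 in hyperoxia, the median UMIs per arterial cell reached 9471 in 1 mouse against 2466 to 4845 in the other 5, Fmo1 reached 424 CPM against 183 to 252 CPM, and Mgp was at 2591 CPM in 1 mouse against 6406 to 7905 CPM. At P7, Isg15 was at 32.1 CPM in 1 normoxic mouse against 112 to 133 CPM, Bst2 at 508 CPM in 1 hyperoxic mouse against 322 to 339 CPM, and Lpl at 30.8 CPM in 1 hyperoxic mouse against 4.80 to 7.67 CPM. At P14, 1 normoxic mouse had 109 CPM of Isg15 against 22.4 to 50.1 CPM, 1 normoxic mouse had 377 CPM of Ctla2a against 651 to 734 CPM, and 1 hyperoxic mouse had 250.3 CPM of Col18a1 against 142 to 155 CPM.

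The response to hyperoxia differed between P14 and P3 by the interaction test for Fn1 (log2 2.31 higher at P14), Fbln5 (log2 1.69 higher), Col18a1 (log2 2.37 higher) and Fmo1 (log2 -1.70, lower at P14). The P14 mice came from pools that held no younger mice, so a difference between ages and one between pools cannot be told apart.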

How the results depend on the processing

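Of 503 results for single genes, 498 kept their sign under each alternative run, and the other 5 were genes without a call: Bmx (log2 -0.0473 without the pool shared by P3 and P7), Dkk2 (-0.0627 with thinned P14 sums and -0.224 without the P14 mice), Gja5 (0.0699 with at least 5 cells and 0.186 without the shared pool), Mgp (-0.0754 without the P14 mice) and Tm4sf1 (0.0805 with at least 15 cells). The all-ages count of 113 became 58 with at least 15 cells per mouse, 53 without age as covariate and 20 without the P14 mice, and stayed within 1.5 times for DESeq2 (112) and with the pool as a replicate block (150). Of the 113, 104 were also called by DESeq2, 109 with the block and 95 with at least 5 cells. The 164 genes called without the filter on low counts held 87 of them. The 120 called without the shared pool held 73, and the 58 called with at least 15 cells held 42. At P3 the count was 16 without the filter on low counts and 0 to 1 with a mouse left out. At P7 it was 48 without the filter, 32 with the pool as a replicate block and 11 to 26 with a mouse left out. At P14 it was 66 with thinned sums and 47 to 117 with a mouse left out, and the difference between P14 and P3 gave 26 genes without the filter, 7 with at least 5 cells and 4 to 5 with a mouse left out. In normoxia P7 against P3 gave 27 without the filter, 1 with at least 5 cells and 0 to 4 with a mouse left out, P14 against P7 gave 216 to 312, and P14 against P3 gave 252 to 501. The block changed no other count by over 1.5 times. The share at P14 turned to 0.842 percentage points higher in hyperoxia among endothelial cells. The ratio of UMIs per cell at P3 was 1.003 with means and 1.32 in mice with at least 10 cells, and at P7 it was 1.25 with means (exact permutation p = 0.052). The cause of these shifts was not tested. With oxygen labels permuted within pools as a replicate block, no share or depth call changed. The by-age fits with at least 15 cells were not run, since P14 hyperoxia keeps 1 mouse. With 10 to 31 cells a mouse, the scarcest genes named rest on few UMIs.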

Other observations

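Of 15 tested members of the hypoxia response list, 2 rose and 3 fell from P3 to P14 in normoxic arterial cells, beside 7.81% and 5.54% of all tested genes. Those that fell were the glycolytic enzymes Pgk1 (log2 -1.05 ± 0.33, adjusted p = 0.0302), Ldha (log2 -0.81 ± 0.25, adjusted p = 0.0282) and Aldoa (log2 -0.73 ± 0.20, adjusted p = 0.0146), while Epas1, the endothelial hypoxia-inducible factor, rose 3.3-fold (log2 1.72 ± 0.18, adjusted p = 2.73e-08) and Vegfa rose 1.92-fold (log2 0.94 ± 0.25, adjusted p = 0.0104). Epas1 stood at 390.3, 703, 727 and 914 CPM at P3 and ranged from 2089 to 2382 CPM (median 2188) at P14. Outside that list Klf9, a glucocorticoid-responsive factor, rose 9.08-fold (log2 3.18 ± 0.41, adjusted p = 1.4e-06), and Ntn4, a basement membrane netrin, rose 12.3-fold (log2 3.62 ± 0.55, adjusted p = 1.67e-05). Age and pool cannot be told apart in these values.

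Immediate early genes, which respond to dissociation, gave 1 call among 20 tested for hyperoxia over all ages, a share near that of all tested genes (3.91%). The call was Fosl2 (log2 0.60 ± 0.13, adjusted p = 0.0058). Fos (log2 0.05 ± 0.16, adjusted p = 0.924) and Jun (log2 -0.06 ± 0.15, adjusted p = 0.913) were not called. Tmem252, a membrane protein of unsettled role, had 6.8 to 33.4 CPM (median 13.0) in P14 normoxia and 41.8, 86.8, 128 and 250.3 CPM in P14 hyperoxia, with no overlap (log2 2.78 ± 0.58, adjusted p = 0.00472).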
